A study of Mus musculus with 6 samples.

Results

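The tumor suppressor p53, its main regulators and 6 of its stress target genes were examined in N2a cells upon NPM1 KD. These 10 genes were taken by symbol from the deposited tables: *Trp53* (the mouse gene for p53), *Mdm2*, *Mdm4* and *Cdkn2a* as regulators, and *Cdkn1a*, *Ccng1*, *Bax*, *Gadd45a*, *Bbc3* and *Zmat3* as targets. All 10 symbols were found, each with 1 of the 26656 gene identifiers listed. N2a is a mouse neuroblastoma cell line, and the labels give its genotype as WT. The cells had been transfected with a pLKO.1 plasmid carrying a short hairpin RNA (shRNA) against *Npm1* (NPM1 KD, n = 3 libraries) or a non-target shRNA (CTR, n = 3), and RNA was taken 72 h later, at day 3 in vitro. Selection with 9.3 µg/ml puromycin from 24 h after transfection onwards is described for the knockdown experiments. Only 1 shRNA against *Npm1* was used, and cells were transfected rather than derived from a stable clone. The cDNA was amplified by PCR and sequenced on a nanopore instrument in long reads. The labels speak of separate biological replicates but give 3 per condition in one place and 2 in another. The p-values below therefore rest on these 6 libraries, some of which may be technical repeats, and may not measure the spread between independent cultures.

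NPM1 is a nucleolar protein that binds ARF, a product of *Cdkn2a*, and MDM2, and it is known to act on p53 through both. MDM2 is the ubiquitin ligase that marks p53 for degradation and blocks its activity. MDM4 is a relative of MDM2 that binds p53 and holds back its transcriptional activity, and ARF inhibits MDM2. When cells are stressed, for instance by DNA damage or by disturbed ribosome assembly in the nucleolus, MDM2 is held off, p53 protein accumulates and the transcription of its targets is induced, *Mdm2* among them, which closes a negative feedback loop. p53 is controlled mostly as a protein, so the mRNA levels reported here do not measure its amount or activity. The comparison of CTR with NPM1 KD asks whether the mRNAs along this axis differed when NPM1 was reduced.

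The targets are bound by p53 at response elements built from a 10-base unit that occurs as a pair. The matches to this unit in the promoters are shown because the genes differ in it, and no binding was measured here. Promoter windows of 300 bases (250 before to 50 after the gene start, RefSeq, GRCm38.p6) were found for 9 of the 10 genes, 14 windows in all. They were searched for the p53 consensus 10-base unit, which reads the same on both strands. Matches, in capitals, were found in 6 of the 14 windows, whereas 8.36% of all 32851 windows held one. The upstream *Cdkn1a* window held 2 of them, 73 and 51 bases before its own start. That start lies upstream of the one in the other *Cdkn1a* window (chr17:29093519-29093818). The search counted exact matches at most 13 bases apart as a full element, which 0.0731% of all windows held. The 10 bases right after the second match depart from the unit only in the first base, so they were not marked.
Cdkn1a (chr17:29090896-29090947, + strand): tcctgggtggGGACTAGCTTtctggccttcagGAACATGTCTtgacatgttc
Mdm2 (chr10:117710925-117710954, - strand): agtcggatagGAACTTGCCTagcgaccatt
Trp53 (chr11:69580274-69580303, + strand): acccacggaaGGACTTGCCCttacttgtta
Ccng1 (chr11:40755452-40755481, - strand): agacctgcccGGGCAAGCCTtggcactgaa
Bax (chr7:45467080-45467109, - strand): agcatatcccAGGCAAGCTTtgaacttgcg
Gadd45a (chr6:67037428-67037457, - strand): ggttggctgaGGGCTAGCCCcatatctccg
The windows of *Mdm4*, *Cdkn2a* and *Bbc3* and the second window of *Cdkn1a* held no match. A match is a description of these letters and not evidence of a bound site. The search covered only these windows and exact matches, so the lack of a match does not show that a gene has no element.

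The authors deposited an rlog value for each gene and library, a log2 expression value normalized for library size, in which the differences of weakly covered genes are pulled towards 0. The values were rounded to whole numbers wherever they reach 1 in size, so a value of 5 stands for anything from 4.5 to 5.5. The authors' mean normalized count over the 6 libraries was 10 or more for 6 of the 10 genes: *Bax* (72.3), *Cdkn1a* (42.1), *Trp53* (31.5), *Cdkn2a* (29.6), *Mdm2* (24.7) and *Bbc3* (14.6). It was below 10 for *Mdm4* (7.08), *Ccng1* (7.04), *Zmat3* (5.78) and *Gadd45a* (1.88). Over all identifiers, 22.4% had a mean of 10 or more. The first 6 genes were tested on rlog values with limma among 5752 genes, and an adjusted p below 0.05 counts as called. In that test 28 genes were called (0.487%), 4 higher upon NPM1 KD (0.0695%) and 24 lower (0.417%). *Npm1* itself was at an rlog value of 10 in every CTR and of 8 in every NPM1 KD library. It fell by 2 ± 0.33 (SE) on the log2 scale (limma, Benjamini-Hochberg adjusted p = 3.23e-06), which leaves 25% of the CTR level on that scale, and all 3 NPM1 KD libraries lay below all 3 CTR libraries. In bulk samples, fewer cells expressing a gene and less RNA per cell cannot be told apart.

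Of the markers of sympathoadrenal neuroblastoma cells, 12 of 14 were detected and 7 had a mean normalized count of 10 or more, among them *Hand2* (214), while *Nefl* and *Nefm* were listed at 0 in every library. The 6 macrophage and leukocyte markers were all listed at 0. The 6 fibroblast markers added up to a mean normalized count of 2.19 and the 4 astrocyte markers to 0.134. Upon NPM1 KD *Chga*, a granule protein of neuroendocrine cells, fell by 1.33 ± 0.34 (SE) on the rlog scale (limma, adjusted p = 0.0260), a call that was lost when any 1 of the 6 libraries was left out (adjusted p from 0.0704 to 0.248). The summed level of the 7 neuroblastoma markers with a mean of 10 or more, taken as 2 to the power of the rlog value, was 1152 to 1280 in CTR and 752 to 832 in NPM1 KD. The part of this difference in the results below was not tested.

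None of the 6 p53 axis genes tested on rlog values was called, against 0.487% of all genes so tested, and none of the 4 tested on recovered reads (described below), where 0% of all genes were called. The rlog values of the groups overlapped for each of the 10, whereas they did not overlap for 5.6% of all genes tested on them. *Trp53*, *Cdkn2a* and *Bax* had the same value in all 6 libraries, as did 40.2% of all genes tested. *Mdm2* had the largest difference among the 6 genes tested on rlog values, with a higher mean upon NPM1 KD, and was not called. The plot of rlog values by library shows the 10 genes beside *Npm1*.

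**Figure D1:**
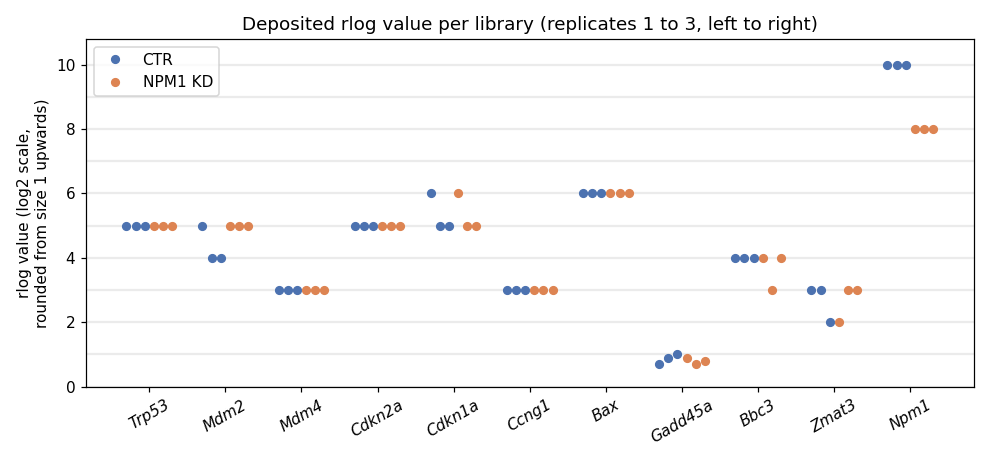
Deposited rlog value (log2 scale, rounded to whole numbers from a size of 1 upwards) of each of the 10 genes and of *Npm1*, with 1 point per library, CTR in blue and NPM1 KD in orange. *Npm1* was at 10 in CTR and at 8 in NPM1 KD, whereas the CTR and NPM1 KD points of the 10 genes overlapped.

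Among the regulators, *Trp53* was at 5 in every CTR and every NPM1 KD library. The difference between the group means was 0 ± 0.33 (SE) with a 95% interval from -0.65 to 0.65 (limma, adjusted p = 1), which as a fold of the CTR level runs from 0.639 to 1.56. *Cdkn2a*, whose locus encodes both the cell cycle inhibitor p16INK4a and ARF, likewise had a value of 5 in all 6 libraries and the same interval. Counts per gene do not separate these products, so a shift from one to the other would not be seen here. The rounded values of *Trp53* and *Cdkn2a*, and of *Bax* below, did not vary between libraries. Their SE and intervals thus come from an allowance for the rounding and from the variance shared across genes in the test. *Mdm2* had values of 5, 4 and 4 in CTR replicates 1 to 3 and of 5 in each NPM1 KD library, so that CTR replicate 1 overlapped with the NPM1 KD group. Its mean was 4.33 ± 0.58 (SD, n = 3) in CTR and 5.00 ± 0 in NPM1 KD, a difference of 0.67 ± 0.33 (SE). The 95% interval of this difference ran from 0.02 to 1.31, with an unadjusted p of 0.0426 and an adjusted p of 0.330 (limma). An unadjusted p below 0.05 was reached by 813 of the 5752 genes tested (14.1%). *Mdm4* was listed at 3 in all 6 libraries and lies below the limit of the test on rlog values.

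Among the targets tested on rlog values, *Cdkn1a*, which encodes the cyclin-dependent kinase inhibitor p21, had values of 6, 5 and 5 in both CTR and NPM1 KD. The difference was 0 ± 0.33 (SE) with an interval from -0.65 to 0.65 (limma, adjusted p = 1). *Bax*, an effector that permeabilizes the outer mitochondrial membrane in apoptosis, had a value of 6 in each library. Its interval ran from -0.67 to 0.67, or from 0.628 to 1.59 as a fold of the CTR level. A protein-coding gene on the same strand, Gm45808, overlaps *Bax* by 915 bases in the GENCODE vM21 annotation and has no deposited value. How reads in this overlap were counted is not given. *Bbc3*, which encodes the BH3-only protein PUMA, had a value of 4 in each CTR library and values of 4, 3 and 4 in NPM1 KD. The NPM1 KD library with the lower value was replicate 2, and the other two equalled CTR. The difference of -0.33 ± 0.36 (SE) had an interval from -1.04 to 0.37 and was not called (limma, adjusted p = 0.713). A missed threshold does not show that the groups were alike. The intervals are on the shrunk and rounded rlog scale, and do not bound the ratio of the reads themselves.

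**Figure D2:**
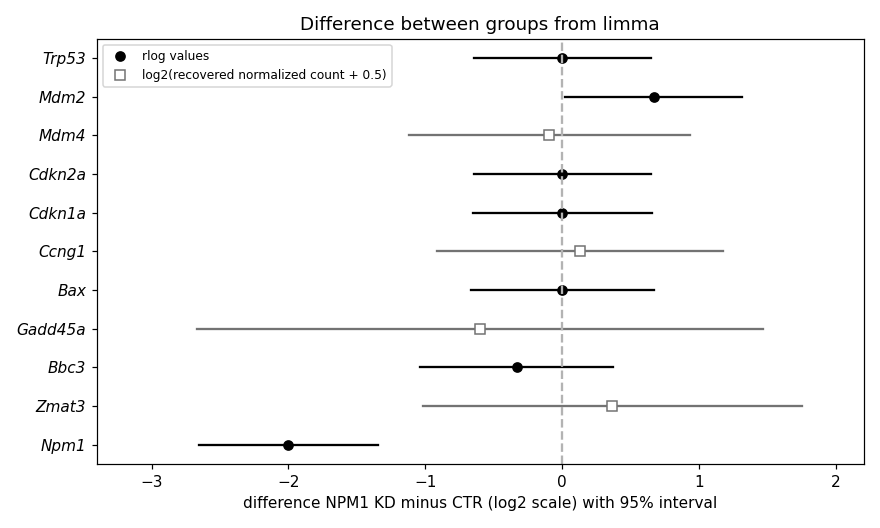
Difference NPM1 KD minus CTR on the log2 scale for the 10 genes and *Npm1*, with the 95% interval from limma; filled circles are rlog values and open squares log2(recovered normalized count + 0.5), and the dashed line marks no difference. The interval of *Npm1* lies below 0, that of *Mdm2* runs from 0.02 to 1.31 before adjustment, and the other 9 intervals include 0.

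Because rounding hides differences below 1, the reads behind the authors' mean normalized counts were recovered. Each mean is a sum of whole reads, each divided by the relative depth of its library, so the reads can be solved for once the depths are known. The relative depth was 1.11 to 1.30 in CTR and 0.784 to 0.961 in NPM1 KD. By this measure each NPM1 KD library was shallower than each CTR library, while the total reads per library are not known. Of 5544 genes with a mean normalized count of 1 to below 10, all 5544 (100%) could be written in exactly 1 way as whole reads, while 3.52% of 1109 means shifted by 1e-06 could be written so at all. This gave the reads of the 4 genes below 10, which were tested with limma among these 5544 genes on log2(normalized count + 0.5), a scale that understates changes of low genes. None of the 5544 genes was called (0%), and 724 (13.1%) had an unadjusted p below 0.05. Over all these genes the difference had a median of -0.16, with 2351 higher and 3193 lower upon NPM1 KD. The part of the lower relative depth of the NPM1 KD libraries in this lean was not tested.

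*Mdm4* had 12, 8 and 6 reads in CTR replicates 1 to 3 and 4, 10 and 4 reads in NPM1 KD. Divided by depth, the mean was 7.06 ± 2.28 (SD, n = 3) in CTR and 7.09 ± 4.28 in NPM1 KD. NPM1 KD replicate 2 was the highest and NPM1 KD replicate 3 the lowest of the 6 libraries. On the tested scale the difference was -0.09 ± 0.50 (SE) with an interval from -1.12 to 0.93 (limma, adjusted p = 0.960).

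*Ccng1*, which encodes cyclin G1, a p53 target that recruits a phosphatase to MDM2, had 7, 15 and 4 reads in CTR and 4, 5 and 10 reads in NPM1 KD. Its normalized mean was 6.92 ± 4.12 in CTR and 7.17 ± 2.84 in NPM1 KD (SD, n = 3), with a difference of 0.13 ± 0.51 (SE) and an interval from -0.91 to 1.18 (limma, adjusted p = 0.938). *Zmat3*, a p53 target encoding a zinc finger protein that binds RNA, had 9, 11 and 1 reads in CTR and 2, 6 and 8 in NPM1 KD. CTR replicate 3 and NPM1 KD replicate 1 were the low libraries, 1 in each group. The mean was 5.53 ± 4.06 in CTR and 6.03 ± 3.06 in NPM1 KD (SD, n = 3), and the difference of 0.37 ± 0.67 (SE) was not called (interval -1.02 to 1.75, limma, adjusted p = 0.862). *Gadd45a*, a growth arrest gene induced by DNA damage, had 0, 3 and 6 reads in CTR and 2, 0 and 1 in NPM1 KD. With 9 reads in CTR and 3 in NPM1 KD the interval was wide, from -2.67 to 1.46, around a difference of -0.60 ± 1.00 (SE) (limma, adjusted p = 0.842). An antisense transcript, E230016M11Rik, overlaps *Gadd45a* by 859 bases in the GENCODE vM21 annotation and had a mean normalized count of 1.39. Opposite-strand entries with no deposited value overlap *Mdm4* by 639 and *Cdkn1a* by 1046 bases. Whether the counting used strand is not given in the sources used here.

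Above a mean of 10 more than 1 combination of reads can give the same mean, and those that also gave the rounded rlog value in every library were kept. This step rests on a rebuilt rlog fit whose dispersion was set on 120 genes of similar mean, and is less certain than the recovery below 10. For *Mdm2* and *Bbc3* 1 combination was left. *Mdm2* had 27, 27 and 15 reads in CTR and 17, 25 and 39 in NPM1 KD. The normalized counts were 21.7, 20.7 and 13.5 in CTR, as opposed to 21.7, 30.02 and 40.6 upon NPM1 KD, so that NPM1 KD replicates 2 and 3 lay above all CTR libraries and replicate 1 lay at the level of CTR replicate 1. The mean was 18.6 ± 4.52 in CTR and 30.8 ± 9.47 in NPM1 KD (SD, n = 3), a log2 ratio of 0.72 (two-sided exact permutation test, p = 0.2). With 3 against 3 libraries this test cannot give a p below 0.1. A second combination, with a log2 ratio of -0.19, appeared when dispersions outside the range set on the similar genes were allowed.

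*Bbc3* had 35, 18 and 13 reads in CTR and 12, 5 and 12 in NPM1 KD. Its normalized counts averaged 17.9 ± 8.98 (SD, n = 3) in CTR, against 11.3 ± 4.77 upon NPM1 KD. The log2 ratio was -0.67 (two-sided exact permutation test, p = 0.5), and CTR replicate 1 was the highest and NPM1 KD replicate 2 the lowest library. At any dispersion tried, from 0.02 to 1, no other combination was left. The match was weaker here than for the other genes, since 92.5% of the genes of similar mean could be given their rlog values, against 99.2% to 100% for the others.

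**Figure D3:**
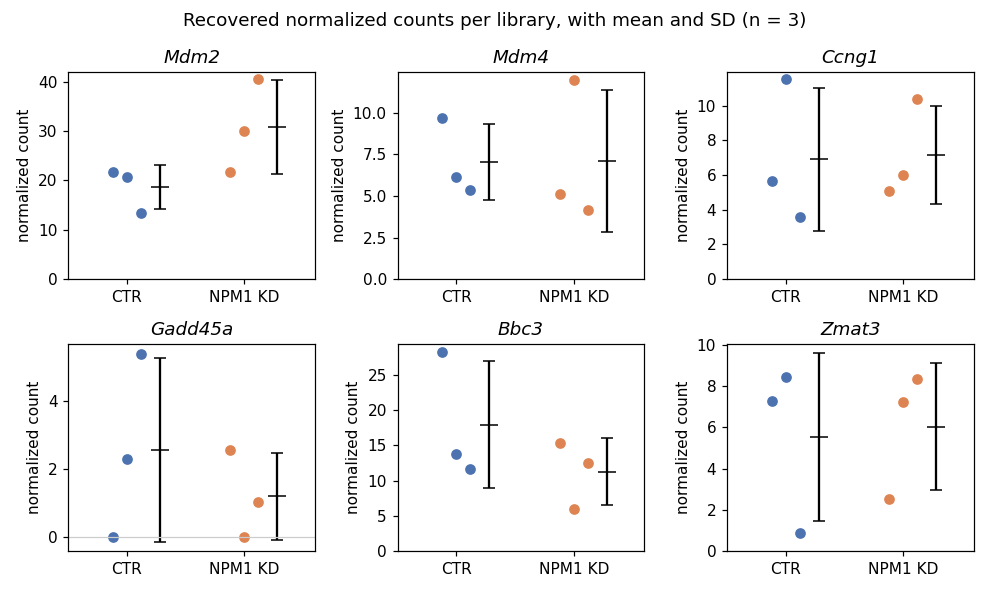
Recovered normalized count (reads divided by the relative depth of the library) of the 6 genes with 1 combination of reads, with 1 point per library and the mean ± SD of each group (n = 3) beside the points. NPM1 KD replicates 2 and 3 of *Mdm2*, at 30.02 and 40.6, lay above the CTR libraries, and the groups overlapped for each gene.

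For *Trp53*, *Cdkn2a* and *Cdkn1a* the reads could not be settled. Of 47 combinations for *Trp53* 5 were left, with log2 ratios from -0.79 to 0.27, 3 of them below 0 and 2 above. For *Cdkn2a* 2 of 40 were left, 1 with a log2 ratio of -0.67 and 1 of 0.24. For *Cdkn1a* 8 of 208 were left, from -0.81 to 0.49, with 5 below 0 and 3 above. When every dispersion tried was allowed, all 47 combinations remained for *Trp53* (log2 ratios from -1.83 to 1.65), all 40 for *Cdkn2a* (-2.05 to 1.04) and 11 for *Cdkn1a* (-0.81 to 0.90). Neither the direction nor the size of a difference in reads can therefore be given for these 3 genes, and combinations that were left lie outside the rlog intervals given above. In none of the 15 combinations left did the exact permutation test give a p below 0.2. *Bax* was not attempted because of the number of combinations at its mean.

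**Figure D4:**
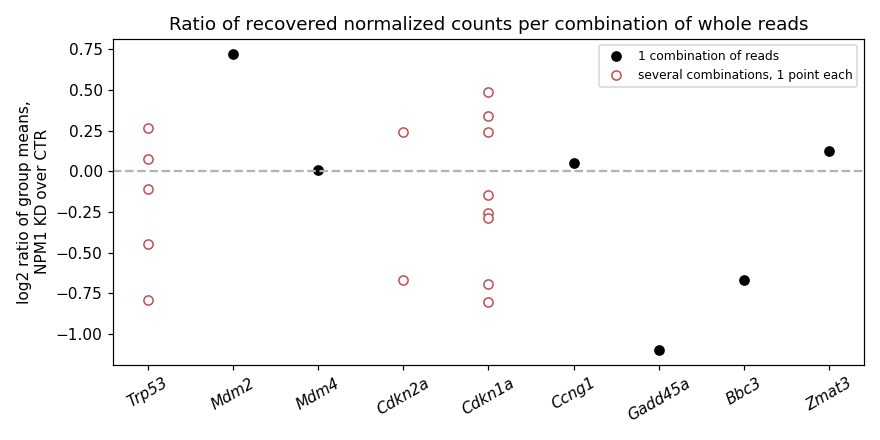
Log2 ratio of the mean recovered normalized counts, NPM1 KD over CTR, for each combination of whole reads left; filled black points mark genes with 1 combination and open red points those with several. The points of *Trp53*, *Cdkn2a* and *Cdkn1a* fall on both sides of 0, *Mdm2* is at 0.72 and *Bbc3* at -0.67.

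The depth sets how small a difference could be seen. Counting alone gives a standard error of the log2 ratio between the groups of 0.14 for *Bax*, 0.18 for *Cdkn1a*, 0.21 for *Trp53*, 0.22 for *Cdkn2a*, 0.24 for *Mdm2* and 0.31 for *Bbc3*. It is 0.44 for *Mdm4* and *Ccng1*, 0.49 for *Zmat3* and 0.86 for *Gadd45a*. These values follow from the mean normalized count with equal depth in both groups, cover counting error only and leave out the spread between cultures.

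The wider p53 network was described with 5 lists, none of which shares a gene with the 10 above. Of 25 regulators of p53, 14 were tested, 1 was called, and that was *Npm1* itself. Of the other 13, 6 had a higher mean upon NPM1 KD, 4 a lower one and 3 the same. *Ep300*, an acetyltransferase and coactivator of p53, had values of 3, 4 and 3 in CTR and was at 4 in each NPM1 KD library, a difference of 0.67 that was not called (limma, adjusted p = 0.396). *Rpl11*, a ribosomal protein that binds MDM2 when ribosome assembly is disturbed, differed by 0.33, as did the coactivator *Crebbp*. The nucleolar protein gene *Ncl* and the ubiquitin ligase genes *Huwe1* and *Cop1* each differed by -0.33, and the adjusted p of each of these 5 genes was 0.713. *Trp63* and *Trp73*, the relatives of *Trp53*, were listed at 0 in all libraries. The recovered reads gave a test for 8 further regulators, none of which was called. Of these, 3 were higher and 5 lower upon NPM1 KD, with a median difference of -0.42 beside -0.16 over all genes so tested, and 2 had an unadjusted p below 0.05, which 13.1% of those genes had.

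Of 22 p53 targets in cell cycle arrest, repair and metabolism, only 3 were tested and none was called. *Pcna*, the DNA polymerase clamp, and *Sesn1* each differed by -0.33 (limma, adjusted p = 0.713), and *Zfp365* had a value of 4 in all libraries. *Plk2*, *Rprm* and *Ddb2* were listed at 0 in all libraries. The recovered reads gave a test for another 14 genes of this list, none of which was called (5 higher, 9 lower, median difference -0.35, 2 with an unadjusted p below 0.05). Over all 5544 genes so tested, 3193 were lower and the median was -0.16.

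Of 25 p53 targets and genes of the apoptosis machinery, 10 were tested and none was called. *Bcl2l1*, which encodes the survival protein BCL-XL, had a value of 5 in each CTR and 4 in each NPM1 KD library. This difference of -1 ± 0.33 (SE) did not pass (limma, adjusted p = 0.0791), although the groups did not overlap, as for 3.41% of all genes tested in the lower direction. *Aen*, a nuclease gene induced by p53, was at 4 in each CTR library and had values of 4, 5 and 5 upon NPM1 KD. Its difference of 0.67 was not called (limma, adjusted p = 0.330). *Cycs*, which encodes cytochrome c, differed by 0.33, and *Ctsd* and *Siva1* by -0.33 each (adjusted p = 0.713). The p53 targets *Pmaip1* (NOXA), *Perp* and *Eda2r* were listed at 0 in all libraries. Of 10 further genes of this list with recovered reads none was called (1 higher, 9 lower, median difference -0.56, 1 with an unadjusted p below 0.05). Genes with recovered reads leaned lower as a whole, with 3193 of 5544 lower and a median of -0.16. Whether this list leaned more than that was not tested.

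Of 12 cyclin-dependent kinase inhibitors and G1 genes, 8 were tested and none was called. *Ccng2*, which encodes cyclin G2, a relative of cyclin G1, had a value of 4 in each CTR and 3 in each NPM1 KD library (difference -1, limma, adjusted p = 0.166). *Cdkn2d* and *Ccne1* each differed by -0.33 (adjusted p = 0.713), and *Cdk4*, *Cdk2* and *Ccnd1* had equal group means. Recovered reads added 2 genes, 1 higher and 1 lower, with differences of 0.88 and -2.29, and none was called. Their median of -0.70 is only the midpoint of these 2 values. The lower gene had 1, 0 and 0 reads in NPM1 KD and an unadjusted p below 0.05 (limma), which 13.1% of all genes so tested had. Of 11 genes of the GADD family and stress response, 7 were tested and none was called. *Ppp1r15a*, the GADD34 gene, had a value of 3 in each CTR and 4 in each NPM1 KD library (difference 1, adjusted p = 0.166), with groups that did not overlap, as for 2.19% of all genes tested in the higher direction. *Ddit4* differed by -0.33, *Atf3* and *Gadd45g* by 0.33 each (adjusted p = 0.713), and *Atf4* and *Trib3* had the same value in all libraries. Another 4 genes of the GADD list had recovered reads, 2 higher and 2 lower, with a median difference of -0.44, and none was called or had an unadjusted p below 0.05. The median of recovered reads in the GADD list stands beside -0.16 over all genes so tested. That of the 2 G1 genes does not describe a lean of the G1 list.

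**Figure D5:**
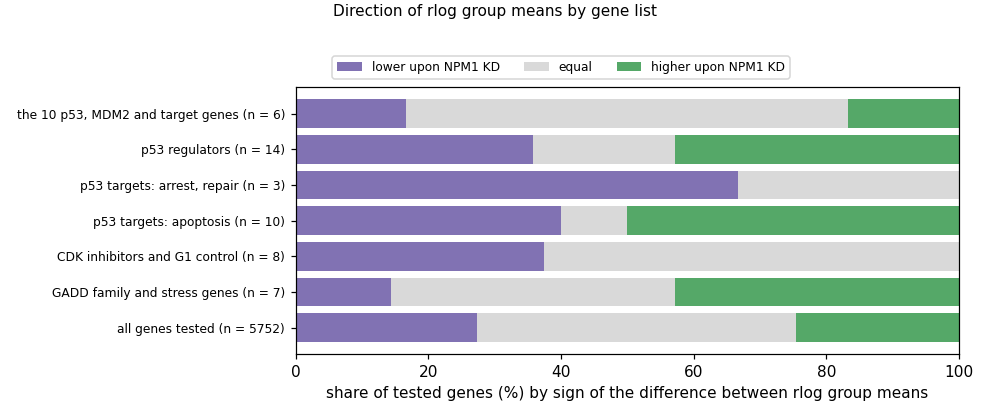
Share of tested genes (%) whose rlog group mean was lower, equal or higher upon NPM1 KD, for the 10 p53 axis genes, for each of the 5 lists and for all genes tested, with the number tested in parentheses. Over all genes 27.4% were lower, 48% equal and 24.6% higher, and of the 6 tested p53 axis genes 1 was lower, 4 were equal and 1 was higher.

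On rlog values, the median difference was 0 for the 6 tested p53 axis genes, for the regulators, for the G1 list, for the GADD list and for all 5752 genes tested. It was 0.17 for the apoptosis list and -0.33 for the 3 tested genes of arrest and repair. Leaving the allowance for rounding or the intensity trend out of the test called *Bcl2l1*, *Ccng2* and *Ppp1r15a*, each in the direction given above. In all, 301 or 350 genes were called in place of 28. None of the 6 tested p53 axis genes was among them, and 3 of these 6 had the same rounded value in all libraries.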

How the data were processed

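RNA-seq libraries of N2a cells (3 CTR, 3 NPM1 KD) were grouped by their sample titles. This experiment is not described in the paper. Per the submitters' processing notes, the authors used minimap2, featureCounts, DESeq2 and the build GRCm39, with no versions given. The authors deposited rlog values, a score on the log2 scale written with decimal commas and rounded to whole numbers from a size of 1 upwards, and, per gene, a mean normalized count. The authors' table also holds their own fold changes, standard errors, statistics and p-values, which were not used. Of 26913 rows, 257 that repeat an identifier with the same values were dropped.

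CTR and NPM1 KD were compared two-sided with limma 3.58.1 (R 4.3.3, lmFit, then eBayes allowing for an intensity trend) over the genes whose rlog values averaged log2 of 10 or more. P-values were adjusted by Benjamini-Hochberg over these genes, with a threshold of 0.05. Residual variances below 0.0833, the variance that rounding adds, were raised to it. Library totals are not in the tables, so the relative depth given is the factor by which the authors' normalization divides the reads of a library. Relative depths came from genes with 1 read in all, were assigned to libraries by the unrounded rlog values, and were refined once on 5544 genes. Reads were then solved for in Python 3.11.15, from 0.2 to 2.6 times the mean for genes of 10 or more, keeping combinations that gave the rounded rlog values. The recovery and all its settings were chosen after seeing the data. Both steps were tested on simulated data. For genes above 10, the recovery was there given the dispersion that had made the simulated reads. The setting of the dispersion from similar genes was thus not tested. The 10 genes, the lists and the allowance for rounding were chosen with earlier results of these data known. Named from the lists were genes past the threshold and up to 6 with the largest differences, of which 1 is not reported here. *Hand2*, *Chga* and genes listed at 0 were named after their values were seen. Promoter sequences are from RefSeq (GRCm38.p6), a build other than that of the files, and were matched by symbol.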

Additional observations from a re-analysis of the deposited data

How the results depend on the processing

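None of the 10 p53 axis genes was called under any alternative tried, and *Npm1* was called under all 13 (limma, adjusted p from 3.59e-12 to 0.00106). For *Trp53*, *Cdkn2a* and *Bax* this outcome was set by the rounding, since their equal values kept the difference between 0 and 0.02. *Cdkn1a*, with the same rounded values in both groups, ran from -0.33 to 0.33. Over all genes, 4 were higher and 24 lower in the reported test. These counts became 123 and 178 without the allowance for rounding, 132 and 218 without the intensity trend, and 1 and 10 without a filter on low values, and they ran from 0 to 2 and from 5 to 9 when 1 library was left out. Without the allowance or without the trend, 1 gene each of the apoptosis list (lower), the G1 list (lower) and the GADD list (higher) was called. *Chga* was not called without the allowance (adjusted p = 0.208) or without the filter (adjusted p = 0.0678). Keeping repeated identifiers, filtering on the mean normalized count and centring the libraries left the counts within 1.5 times of those reported.

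The labels give both groups the same replicate numbers. With a replicate block 1 gene was higher and 7 were lower, and *Chga* was not called (adjusted p = 0.167). In the rounded rlog values, libraries of the same number did not deviate together (correlations of deviations 0.00887, 0.00128 and 0.0298). Not every library correlated best with its own number, and the numbers were not taken to pair the libraries. Since 40.2% of all genes tested had the same value in every library, these correlations can miss a shared batch. On recovered counts a replicate block called 2 genes higher and 68 lower, where 0 were called without it. Whether the libraries are paired is therefore not settled.

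For the recovered counts, chosen after seeing the data, 0 genes were called in either direction. With a pseudocount of 1, 2 genes were higher and 57 lower, with a replicate block 2 and 68, at a mean of 2 or more 0 and 2, and with 1 library left out 0 higher and from 0 to 9 lower, the 9 without NPM1 KD replicate 3. The differences of all 4 low genes changed sign when 1 library was left out: *Mdm4* ran from -0.52 to 0.19, *Ccng1* from -0.22 to 0.55, *Gadd45a* from -1.61 to 0.17 and *Zmat3* from -0.49 to 0.85. Their signs were thus set by single libraries, and with few reads at this depth no direction can be given. Over the alternatives on rlog values, *Mdm2* ran from 0.50 to 1.00 and *Bbc3* from -0.50 to 0. In recovered reads, the log2 ratio of *Mdm2* was 0.72, or -0.19 for the combination that appeared at other dispersions, and that of *Bbc3* was -0.67.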
